A study of Caenorhabditis elegans with 2 samples.

Results

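The 26S proteasome degrades proteins that carry ubiquitin chains. Its barrel-shaped 20S core holds the proteolytic sites inside stacked rings of alpha subunits (pas genes in Caenorhabditis elegans) and beta subunits (pbs genes). The 19S regulatory particle, capping the core, recognises, unfolds and threads in the substrates. It consists of a base with a ring of ATPases (rpt genes) and scaffold and ubiquitin-receptor subunits, and of a lid (the other rpn genes). These genes are used in every cell, and muscle relies on the proteasome for the turnover of its contractile proteins.

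Binding of HLH-1, the MyoD-family muscle factor of the worm, was examined around the genes of this complex. All 33 protein-coding genes whose symbol begins with pas-, pbs-, rpt- or rpn- were taken, of 19973 protein-coding genes on the 6 nuclear chromosomes. They comprise 7 alpha ring, 7 beta ring, 6 ATPase, 4 other base and 9 lid genes. The study is a chromatin immunoprecipitation with sequencing (ChIP-seq) of 2 biological replicates, which form 1 group. Both are whole embryos of mixed stage and mixed sex of strain OP64, of unknown age, which has the genotype unc-119(ed3) III; wgIs64 and makes an eGFP fusion of HLH-1 from the wgIs64 insertion. Whole embryos pool muscle with all other tissues, and no RNA was measured, so neither the cell type in which a site was bound nor the expression of a gene can be read from these data. The sample labels give the antibody as hlh-1 for both replicates. There is no second condition, and the control library was not analysed here.

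A gene was called bound when a peak summit of the authors' IDR list (peaks past a threshold of reproducibility, the irreproducible discovery rate) fell between 2000 bp before and 500 bp after its annotated start. That list holds 3254 peaks on the ce11 build, with scores from 32.5 to 965 and a median of 55.7. The score is the authors' own, its scale is not stated, and it serves only to rank peaks within a list (rank 1 is the highest). Each replicate also has a relaxed list that includes background, with 28959 peaks for replicate 1 and 30000 for replicate 2, and a relaxed list of the pooled reads holds 25321. The IDR list, which the authors name optimal, holds the 3254 highest-scoring peaks of that pooled list. Not every IDR peak was found in both replicates, since 2706 overlapped any peak of replicate 1 and 3253 any peak of replicate 2. How deeply the libraries were sequenced is unknown, and with it the precision of any one score. With 1 group, and with genes that are not replicates, the counts below are descriptions, and no test was run on them.

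HLH-1 summits lay at the starts of 14 of the 33 proteasome genes (42.4%, 95% Wilson interval 27.2 to 59.2, which covers counting of genes alone). The same rule called 12.8% of all protein-coding genes. Bound genes were spread over the complex, with 3 of 7 in the alpha ring, 4 of 7 in the beta ring, 3 of 6 among the ATPases and 4 of 9 in the lid. None of the 4 other base genes was bound (interval up to 49.0%). The ribosomal protein genes, another set used in every cell, had larger bound shares, with 40 of 47 genes of the large and 28 of 31 of the small subunit.

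**Figure D1:**
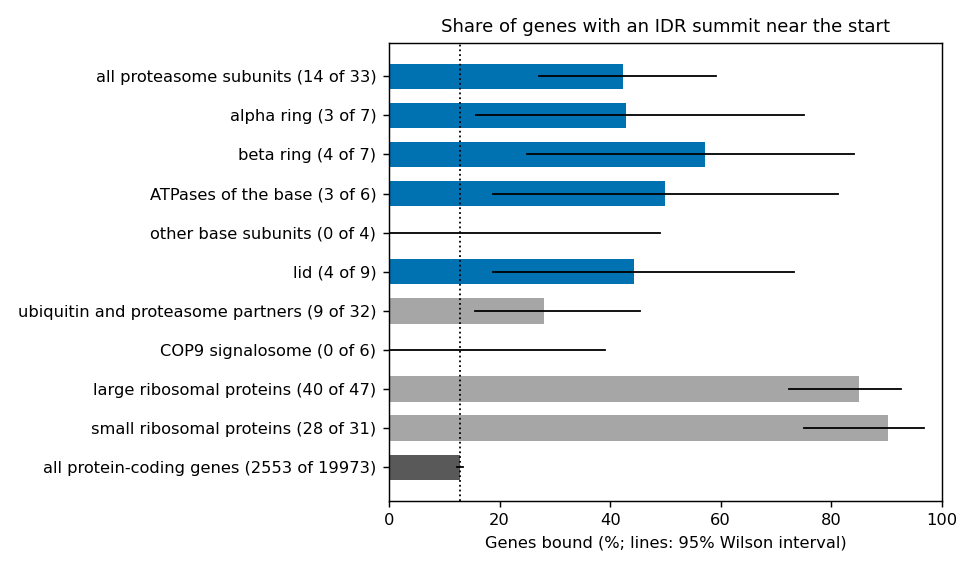
Share of genes bound (x axis, %) for the proteasome genes and their subcomplexes (blue), for comparison lists (light grey) and for all protein-coding genes (dark grey, dotted line at 12.8%); lines are 95% Wilson intervals. The subcomplexes with bound genes lie between 42.9% and 57.1%, with wide and overlapping intervals, below the ribosomal protein genes at 85.1% and 90.3%.

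Every bound proteasome gene had its nearest summit upstream of the start, at a median distance of 192 bp. For 11 of the 14 it lay within 300 bp. Over all 2553 bound protein-coding genes the median distance was 375 bp, 92.6% were upstream and 43.4% lay within 300 bp. The 14 genes had 18 summits between them, 4 at rpt-6, 2 at rpt-2 and 1 at each of the others. In worms the mature end of many transcripts is set by trans-splicing, so the annotated start can lie downstream of the point where transcription begins.

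**Figure D2:**
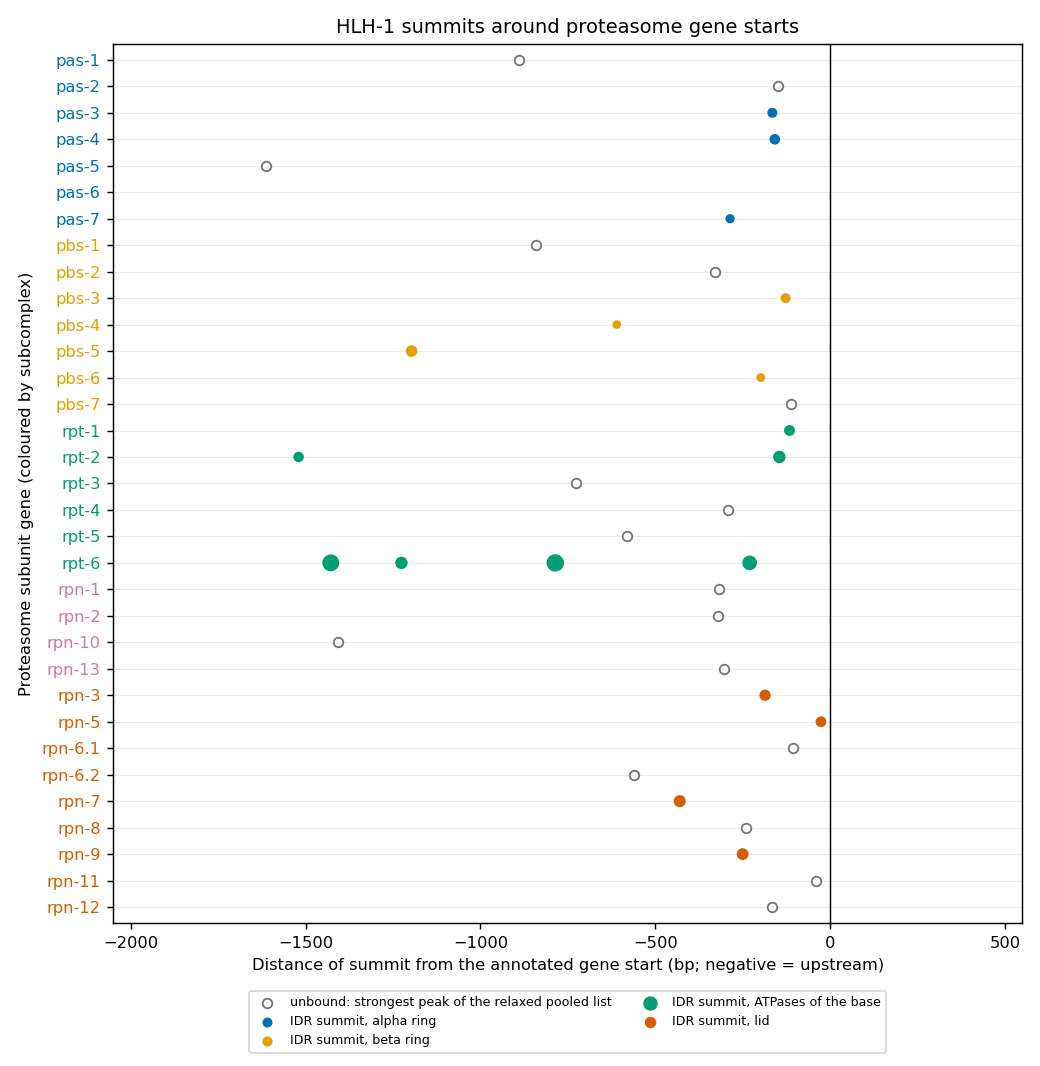
Position of summits relative to the annotated start (x axis, bp) for the 33 proteasome genes (y axis). Filled dots are IDR summits, coloured by subcomplex and larger for higher scores; open circles mark, for unbound genes, the strongest peak of the relaxed pooled list in the same window. Most summits gather within 300 bp upstream of the start, and rpt-6 carries 4 of them.

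Of the alpha ring genes, whose products gate the entrance of the barrel, pas-3, pas-4 and pas-7 were bound, all at scores below the median of the list. The pas-3 summit (chromosome I, peak 5106065 to 5106360, score 43.7, rank 2322) lay 165 bp upstream of the start. In replicate 1 the overlapping peak had a score of 8.47 (rank 1792), and in replicate 2 a score of 36.1 (rank 2546). Those ranks place it among the top 3254 of each list. At pas-4 (chromosome I, peak 8728497 to 8728792, score 49.4) the summit was 158 bp upstream. Replicate 2 listed it at a score of 53.8 (rank 1425), and replicate 1 listed no overlapping peak. The summit of pas-7 was 286 bp upstream (score 36.9), with a score of 5.42 in replicate 1 (rank 5980) and 31.4 in replicate 2 (rank 2978). All 3 summits were nearer to the start of another protein-coding gene, pas-3 to use-1 (9 bp, in its 5′ UTR), pas-4 to rpb-3, an RNA polymerase II subunit gene (119 bp), and pas-7 to puf-12, a pumilio-family gene (170 bp). Non-coding genes started nearer still to the summits of pas-4 (C36B1.16, 63 bp) and pas-7 (ZK945.13, 42 bp), and each summit lay in an exon of that gene. The alpha ring was thus called bound entirely through summits that were closer to a neighbour.

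The beta ring holds the proteolytic sites, which are formed by the products of pbs-1, pbs-2 and pbs-5. Of these genes only pbs-5 was bound. The pbs-5 summit (chromosome I, peak 14721526 to 14721821, score 61.3, rank 1412) lay 1197 bp upstream, in an intron of the neighbour K05C4.2 and 305 bp from that gene's start. Its score was 5.21 in replicate 1 (rank 6658) and 56.8 in replicate 2 (rank 1298). The other bound genes encode subunits without a catalytic site. At pbs-3 the summit was 127 bp upstream (score 42.1), inside an exon of the next gene ulp-2, with scores of 6.46 in replicate 1 and 34.4 in replicate 2. The pbs-4 peak, 610 bp upstream, was among the weakest of the IDR list (score 33.0, rank 3201), and its ranks in replicates 1 and 2 were 3732 and 3757. The pbs-6 summit, 198 bp upstream (score 34.3), was listed in replicate 2 (score 33.6) and had no overlapping peak in replicate 1. It was nearer to the start of cids-1 (155 bp). Within the 20S core, only pbs-3 and pbs-4 had a start nearer to the summit than that of any other protein-coding gene.

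The strongest peaks of the complex were in the windows of the ATPase genes rpt-6 and rpt-2. At rpt-1, the other bound ATPase gene, the score (52.2) was below that of the lid gene rpn-7 (71.1). The ring that the rpt genes encode unfolds substrates and feeds them into the core. Upstream of rpt-6 (WBGene00004506, chromosome III, 12370456 to 12372607 on the plus strand) lay 4 summits. The nearest, 230 bp from the start, had a score of 151.7 (rank 192) and is closer to rpt-6 than to any other annotated start. Its overlapping peaks ranked 184 in replicate 1 (score 21.7) and 216 in replicate 2 (score 129.9). The strongest, 786 bp upstream, ranked 4 in the whole IDR list with a score of 408.6. It ranked 4 in replicate 1 (score 58.2) and 5 in replicate 2 (score 352.8). This summit lies 620 bp from his-72, the histone H3.3 gene that is transcribed in the opposite direction, against 786 bp from rpt-6. The remaining summits, 1226 and 1428 bp upstream, were 180 and 22 bp from the his-72 start (scores 76.5 and 339.1). In each replicate they overlapped 1 and the same peak, ranked 3 in replicate 1 and 22 in replicate 2. The signal at rpt-6 was therefore high in both replicates, but only its nearest summit could be assigned to rpt-6 by distance.

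At rpt-2 the summit 145 bp upstream had a score of 78.9 (rank 881), with ranks of 619 in replicate 1 (score 13.6) and 1102 in replicate 2 (score 62.2). It lies between rpt-2 and aps-1, an adaptor complex gene on the other strand, with 300 bp between the annotated starts. A non-coding gene, F29G9.10, starts 37 bp from the summit. Another summit, 1520 bp upstream (score 47.5), was in an intron of picc-1. The rpt-1 summit was 116 bp upstream in intergenic sequence (score 52.2), with scores of 5.55 in replicate 1 (rank 5579) and 49.7 in replicate 2 (rank 1633). The unbound ATPase genes rpt-3, rpt-4 and rpt-5 had their nearest IDR summits 25456, 20265 and 25361 bp away.

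The bound lid genes were rpn-3, rpn-5, rpn-7 and rpn-9, which all encode scaffold proteins of the PCI-domain family that bind one another in a horseshoe. The rpn-7 peak was the strongest of them (score 71.1, rank 1078), with scores of 3.38 in replicate 1 (rank 17062) and 62.6 in replicate 2 (rank 1084). Its summit was 430 bp from the rpn-7 start and 14 bp from that of F49C12.9, in the 5′ UTR of F49C12.9. At rpn-9 the summit was 250 bp upstream (score 66.2), with a score of 2.90 in replicate 1 (rank 21676) and 65.8 in replicate 2 (rank 982). For both genes the replicates thus differed widely in rank. At rpn-3 the summit lay 186 bp upstream (score 58.0, with 6.15 in replicate 1 and 57.2 in replicate 2), in the 443 bp that separate rpn-3 from the chaperone gene hsp-110 on the other strand. A non-coding gene, C30C11.14, starts 72 bp from this summit. The rpn-5 summit was only 26 bp upstream (score 51.3) and ranked 2308 in replicate 1 (score 7.72) and 1686 in replicate 2 (score 48.8). Its neighbour on the other strand is the cohesin gene scc-1. Of the PCI-family lid genes rpn-6.1, its paralog rpn-6.2 and rpn-12 were not bound, and neither were rpn-8 and rpn-11, whose products form the deubiquitinating pair of the lid.

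The sequences below are the 101 bp centred on the summit, on the strand of the named gene in ce11. They are the windows of the highest-scoring bound gene, among those on other chromosomes than that of pas-3, in each of the alpha ring, the beta ring, the ATPases and the rpn genes, for rpt-6 at the nearest and the strongest summit. The window of rpn-5 was added after its values were seen, as the one member window with CAGCTG, an E-box that MyoD-family factors bind. Capitals mark this E-box and its relatives, CAACTG and the form with CC in the middle, on either strand. A window in lower case has none of them.
pas-7, chrII:10100090-10100190, minus strand: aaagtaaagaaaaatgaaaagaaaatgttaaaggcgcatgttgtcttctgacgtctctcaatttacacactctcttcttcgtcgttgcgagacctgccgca
pbs-3, chrII:4955504-4955604, minus strand: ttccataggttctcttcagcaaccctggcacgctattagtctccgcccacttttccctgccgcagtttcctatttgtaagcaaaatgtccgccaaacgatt
rpt-6 nearest, chrIII:12370176-12370276, plus strand: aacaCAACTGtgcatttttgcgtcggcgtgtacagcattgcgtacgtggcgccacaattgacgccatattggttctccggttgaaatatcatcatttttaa
rpt-6 strongest, chrIII:12369620-12369720, plus strand: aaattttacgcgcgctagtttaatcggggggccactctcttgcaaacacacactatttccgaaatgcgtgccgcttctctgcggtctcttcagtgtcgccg
rpn-7, chrIV:9316151-9316251, plus strand: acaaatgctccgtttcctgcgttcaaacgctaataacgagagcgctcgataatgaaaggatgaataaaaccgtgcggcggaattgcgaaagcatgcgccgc
rpn-5, chrII:4698403-4698503, minus strand: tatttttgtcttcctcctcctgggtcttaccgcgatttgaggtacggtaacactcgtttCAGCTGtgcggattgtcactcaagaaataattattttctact

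These 3 E-boxes, searched on both strands, were present in 3 of the 18 member windows (16.7%). Of all 3254 summit windows of the same length 38.8% held at least 1 of them, and of the 1918 IDR summits that lie in the window of any protein-coding gene 32.9% did. Without the summits at rpt-6 the count among members was 1 of 14. The low share was not particular to the proteasome genes. At the ribosomal protein genes it was 17.1% of 41 windows for the large and 17.2% of 29 for the small subunit. CAGCTG was present at rpn-5 alone (4698439 to 4698444, centred 11.5 bp from the summit), against 15.2% of all summit windows. CAACTG was present at rpt-6 at the summits 230 and 1428 bp upstream, centred 43.5 and 42.5 bp from the summit, against 18% of all windows. CACCTG was absent from the 18 windows, and 9.43% of all windows held it. Any E-box of the form CANNTG, the loosest pattern, was present in 9 of the 18, against 63.4% of all and 59.4% of the 1918. For the large and small ribosomal subunit genes this share was 39.0% and 55.2%. The repeat GAGAGA, searched on both strands, was present in 1 of 18 member windows, in 29.7% of all and in 27.8% of the 1918. It too was less frequent at the ribosomal protein genes, with 7.32% of large and 13.8% of small subunit windows. The strongest member peak, 786 bp upstream of rpt-6, thus had none of the 3 E-boxes within 50 bp of its summit. The member windows had a median GC content of 43.6%, against 47.5% over all IDR summits.

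The member peaks were of middling strength. Their median score was 55.1 and their median rank 1686, which is 51.8% of the way down the list, and 9 of the 18 ranked above the middle of the list. Over all IDR peaks the median score was 55.7. Without the 4 summits at rpt-6 the highest score was 78.9, the median 50.4 and 5 of 14 ranked above the middle, so rpt-6 alone set the top of the range. With the top 1000 peaks rpt-2 and rpt-6 were the only proteasome genes bound (6.06%), near the 3.73% of all protein-coding genes.

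The replicates differed in how many of these genes they placed among their strongest peaks. Taken by itself, replicate 1 placed a summit of its top 3254 peaks at 7 of 33 proteasome genes (21.2%), against 10.1% of all protein-coding genes by the same rule. Replicate 2 did so at 14 (42.4%), against 12.8% of all. Of the 14 genes bound by the IDR list, 13 were also bound with replicate 2 and 4 (pas-3, rpt-2, rpt-6 and rpn-5) with replicate 1. Over all 2553 bound genes these shares were 93.9% for replicate 2 and 52.1% for replicate 1, against 92.9% and 28.6% for the proteasome genes. Of the 18 member peaks 8 overlapped a top peak in both replicates (44.4%, against 48.0% of all IDR peaks). Of these 8, 4 were at rpt-6 and 2 at rpt-2, and without rpt-6 the count was 4 of 14. By gene, those peaks left 4 of 33 members bound (12.1%), against 6.01% of all protein-coding genes. The IDR list and replicate 2 thus named nearly the same proteasome genes, with pbs-4 lost and rpn-6.1 gained in replicate 2, while replicate 1 named 4 of them and added pas-5, rpn-8 and rpn-12. Whether depth or enrichment differed between the replicates was not tested.

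**Figure D3:**
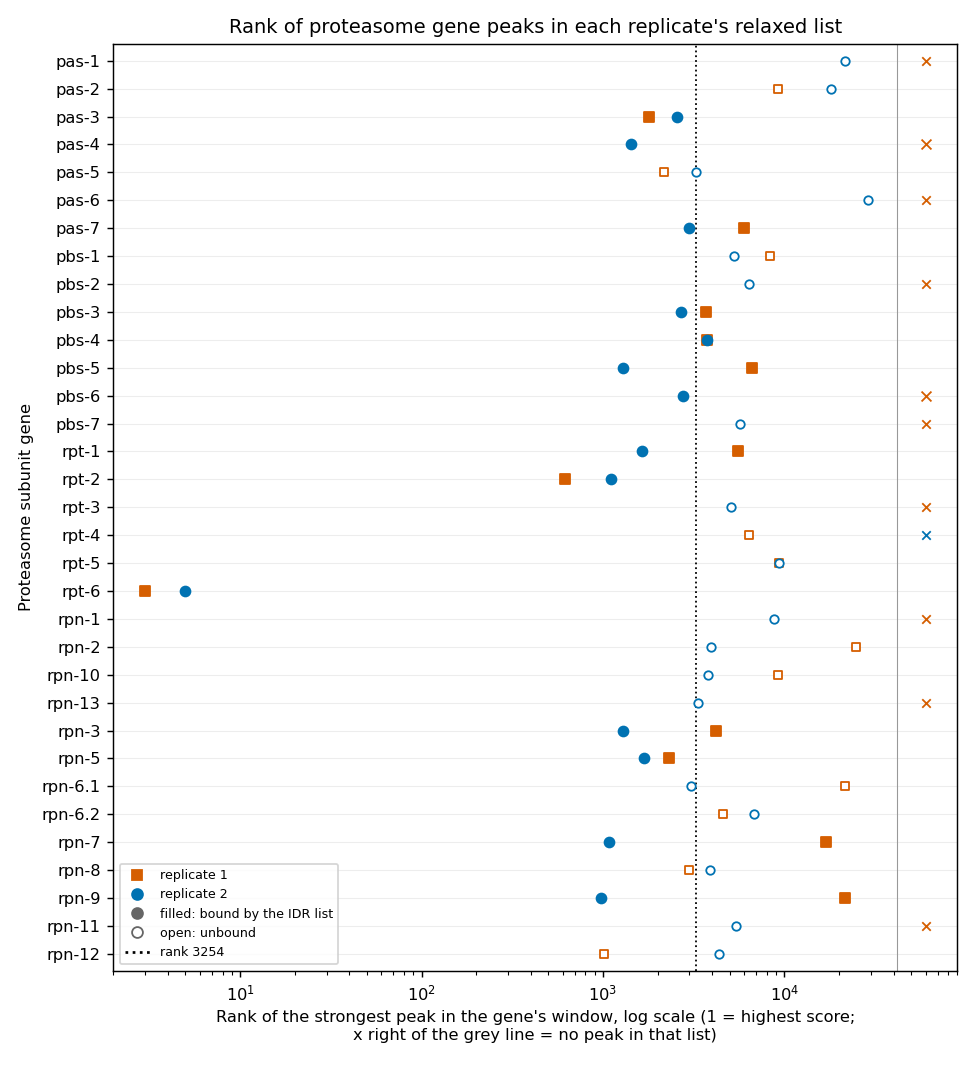
Rank (x axis, log scale, 1 is the highest score) of the strongest peak in the window of each proteasome gene in the relaxed lists of replicate 1 (orange squares) and replicate 2 (blue circles); filled symbols are genes bound by the IDR list and crosses mark lists with no peak. The dotted line marks rank 3254: 13 of the 14 bound genes lie left of it in replicate 2 and 4 in replicate 1, and rpt-6 stands far to the left in both.

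The 19 unbound genes mostly had weaker peaks near their starts. In the relaxed pooled list 18 of them had a summit in the window (94.7%), against 44.4% of all 17420 unbound protein-coding genes. Counting bound genes too, 32 of the 33 had one, against 51.5% of all genes. The ribosomal protein genes shared this, with 44 of 47 for the large and 31 of 31 for the small subunit. The strongest such peaks of the unbound members had scores from 8.29 to 32.4, with a median of 21.3, against a median of 12.5 over all unbound genes with a relaxed peak. For 8 of the 19 (42.1%) that peak ranked within the top 5000 of the pooled list, against 6.35% of all unbound genes. The relaxed list includes background by its construction, so these peaks are not calls.

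Closest to the score limit were rpn-10, a ubiquitin receptor gene (chromosome I, score 32.4, rank 3264, 1406 bp upstream), and pas-5 (score 30.4, rank 3509). Just inside it stood pbs-4 with a score of 33.0. Next came rpn-6.1 (score 29.4, 106 bp upstream), rpn-6.2 (27.1), rpn-12 (26.8), rpn-13 (24.97), another ubiquitin receptor gene, and the scaffold gene rpn-2 (24.9). The rpn-12 window held the strongest replicate 1 peak of any unbound member (rank 1017, score 10.7), at 165 bp upstream, while in replicate 2 the peak there ranked 4382 (score 21.9). That interval is shared with rad-23, whose product carries ubiquitinated proteins to the proteasome and which is transcribed the other way. For rpn-6.1 the order was opposite, with rank 3053 in replicate 2 (score 30.8) and rank 21460 in replicate 1 (score 2.92). Lower scores were found at rpn-8 (22.3), rpt-3 (22.1), pbs-1 (20.5), rpn-11 (18.2), pbs-2 (17.1), rpt-5 (14.3) and the scaffold gene rpn-1 (13.9). At the bottom were pas-2 (13.1), pas-1 (12.1), pbs-7 (9.01) and rpt-4 (8.29). For pas-6 the pooled list had no summit in the window, and the one peak in replicate 2 ranked 29097.

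By distance, the IDR summits nearest to unbound members but outside the window were 1331 bp downstream of the pbs-2 start (score 82.6), 2699 bp upstream of pas-1 (score 36.4), 3007 bp upstream of rpn-13, 3131 bp upstream of rpn-8 and 3663 bp upstream of pas-5. The farthest summit inside the window was the one 1520 bp upstream of rpt-2. Extending the window to 5000 bp upstream therefore added pas-1, pas-5, rpn-8 and rpn-13, for 18 of 33 (54.5%), against 19.7% of all genes.

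Neighbours complicate the assignment of these peaks, since worm genes are closely packed. For 11 of the 14 bound proteasome genes a summit in the window also fell in the window of another protein-coding gene (78.6%), against 56.0% of all bound genes. Those that shared none were pbs-3, pbs-4 and rpt-1. Assigning each summit to the nearest protein-coding start alone left 8 proteasome genes bound (24.2%), against 8.83% of all protein-coding genes. These were pbs-3, pbs-4, rpt-1, rpt-2, rpt-6, rpn-3, rpn-5 and rpn-9, that is 2 of the 14 genes of the 20S core and 6 of the 19 of the regulatory particle. Counting the starts of non-coding genes as well removed rpt-2 and rpn-3 and left 6 (18.2%), against 6.91% of all. A narrow window, from 500 bp upstream to 250 bp downstream, kept 12 of the 33 and removed pbs-4 and pbs-5, against 7.19% of all genes.

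**Figure D4:**
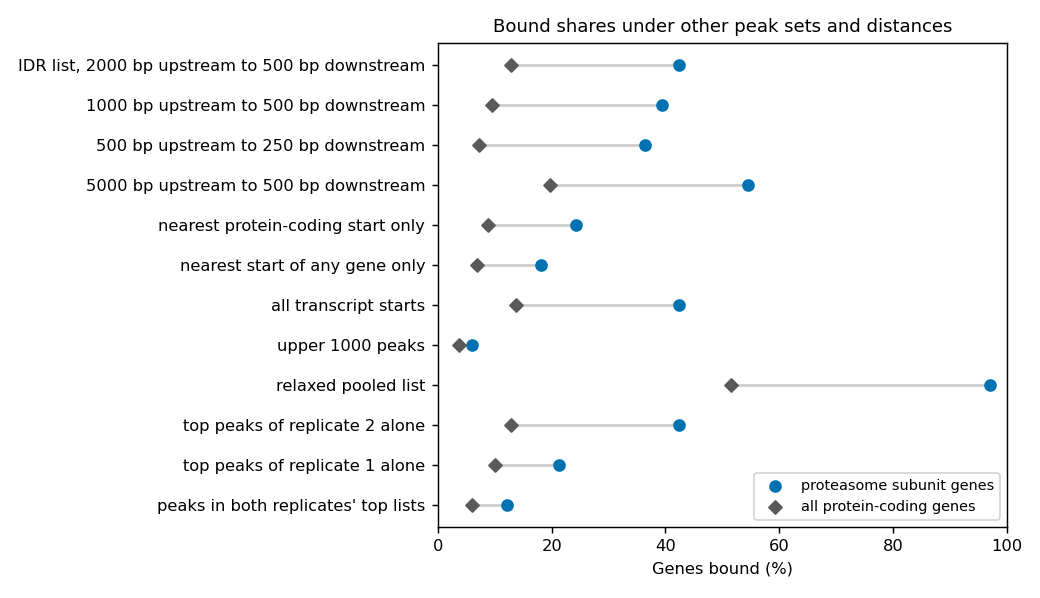
Share of genes bound (x axis, %) among the 33 proteasome genes (blue circles) and all protein-coding genes (grey diamonds) under 12 combinations of peak set and assignment. The circle lies to the right of the diamond in each row, by least with the upper 1000 peaks (2 genes bound).

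Arrangement on the chromosome varied among the members. A protein-coding neighbour transcribed the other way lay within 500 bp upstream, or overlapped the start as at rpt-4, for 13 of the 33 (39.4%, against 13.1% of all protein-coding genes). Of these 13, 8 were bound (61.5%), against 17.9% of all genes so placed. Of 8 members with a neighbour ending within 500 bp upstream on the same strand, an arrangement that in worms includes operons, 2 were bound (pbs-3 and pbs-5). Of all genes so placed, those with an overlapping neighbour included, 9.89% were. Operons are not marked in the annotation used. Of 10 members with a divergent neighbour farther off, 3 were bound, against 15.9% of all genes so placed. The members were on chromosomes I (4 of 10 bound), II (4 of 7), III (3 of 8), IV (1 of 3) and V (2 of 5), and none is on X. Of all protein-coding genes 15.9% on I, 12.7% on II, 17.7% on III, 12.1% on IV and 7.29% on V were bound.

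Genes that work with the proteasome were bound in 9 of 32 cases (28.1%, interval 15.6 to 45.4, against 12.8% of all protein-coding genes). The list was chosen with earlier results of these data known. It holds ubiquitin genes, conjugating enzymes, ligase scaffolds and shuttle factors. Genes outside these classes are also in it, among them uba-1, ubh-4, usp-14, dss-1, psmd-9, skn-1, cdc-48.1 and ufd-2. The strongest peak was at cdc-48.1, which encodes the p97 unfoldase that hands substrates to the proteasome (152 bp upstream, score 115.8, rank 391, with rank 2933 in replicate 1 and 341 in replicate 2). Summits closest to the gene's own start were also found at the conjugating enzyme gene ubc-3 (score 61.9), the cullin genes cul-1 (51.2) and cul-4 (32.6), the chain-extending ligase gene ufd-2 (50.3) and the polyubiquitin gene ubq-1 (37.3, 434 bp downstream of the start). Those at ubq-2, let-70 and rbx-1 were nearer to frg-1, klc-1 and ztf-9. Replicate 1 listed no overlapping peak at ubc-3, cul-4, ubq-2 and rbx-1. Its peak ranked 12198 at cul-1 and 3877 at ufd-2, but 1414 at ubq-1 and 424 at let-70. The cul-4 peak was near the end of the IDR list (rank 3246) and ranked 3437 in replicate 2. Among the unbound partners were skn-1, png-1 and ddi-1, which in worms act in the induction of proteasome genes when the proteasome is impaired. The COP9 signalosome resembles the lid in its subunits. None of its 6 listed genes found in the annotation was bound, against 12.8% of all protein-coding genes. The interval reaches 39.0% and covers counting of genes alone. Replicate 1 alone called 2 of these 6, against 10.1% of all genes, and replicate 2 alone called 0, against 12.8%.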

How the data were processed

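HLH-1 was measured by ChIP-seq in 2 replicates of 1 group, and only deposited peak lists were used. Per the deposited manifest, each replicate and the pooled reads have a relaxed list compared with a control, and the IDR list derives from all 3. For alignment, peak calling and the IDR limit, software and settings were not given in the sources used here. Peaks were ranked within a list by the authors' score, and the authors' −log10 q-value was only inspected. The scale of the score can affect no count, but each count moves with the threshold. Lists on ce11 were joined to Ensembl release 115 (WBcel235, the same build) and to the RefSeq sequence of that assembly; ce10 lists were not used. A start is the most 5′ annotated base, and coordinates are 1-based. Peaks of different lists were matched by an overlap of at least 1 bp, keeping the highest score. Motifs were searched on both strands in 101 bp around summits and from 250 bp before to 50 bp after starts. Python 3.11.15, numpy 2.4.6 and scipy 1.17.1 were used, and the call rule was tested on simulated data. All members were described; sequences are of the strongest bound member of each class off chromosome I, plus rpn-5, chosen after its values were seen. The members and lists were chosen with earlier results of these data known. Of the listed symbols csn-7 matched no gene. Alternatives were other distances, assignments and peak sets.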

Additional observations from a re-analysis of the deposited data

How the results depend on the processing

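The count of bound proteasome genes was 14 in the main analysis. It was 8 and 6 with the nearest protein-coding start or the nearest start of any gene only, 2 with the upper 1000 peaks, 32 with the relaxed pooled list and 4 with the peaks in both replicates' top lists; of all protein-coding genes these settings called 8.83%, 6.91%, 3.73%, 51.5% and 6.01%. Leaving out 1 replicate gave 7 to 14. For the 20S core (7) the same 5 settings gave 2, 2, 0, 13 and 1, and leaving out a replicate 2 to 6. The regulatory particle (7) gave 4 with any nearest start, 2 with the upper 1000 peaks, 19 with the relaxed list and 3 with the shared peaks; partner genes (9) gave 1, 26 and 2 under the last 3 of these. COP9 genes (0) had 5 with the relaxed list and 0 to 2 with a replicate left out. The other counts stayed within 1.5 times the main value under the other windows and with all transcript starts. E-box windows (16.7%) were 5.56% with 25 bp on each side, 40.0% of 5 summits in the upper 1000 and 37.5% of 8 shared summits. The 2 E-box windows in the upper 1000 were both at rpt-6, and the 3 shared ones were at rpt-6 and rpn-5. Shares over all IDR peaks at these settings are not given, so no rise or fall can be read from them. The median peak (51.8% down the IDR list) lay 6.66% down the relaxed pooled list, and 4.54% to 10.4% down the lists of single replicates, which are longer and hold background. Across all 12 settings rpt-6 was bound in each and pas-6 in none. Read depth is unknown, which leaves the precision of scores unknown, and no test compares the replicates.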

Other observations

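In promoters from 250 bp before to 50 bp after the start, ATGAC, the core of the sites that the stress factor SKN-1 binds, was found on either strand in 19 of the 33 proteasome genes (57.6%), against 39.5% of all protein-coding genes. It was found in 6 of the 14 bound genes (42.9%) and in 13 of the 19 unbound ones (68.4%). In the summit windows of the bound genes it was found in 2 of 18, both at rpt-2, against 17.2% of all IDR summit windows. The 3 E-boxes searched at the summits showed the other order. At least 1 of them was in 4 of the 14 bound promoters (28.6%) and 1 of the 19 unbound ones (5.26%), against 25% of all promoters. For both ATGAC and these E-boxes the bound share was near that of all promoters, and the unbound share was farther from it. GAGAGA was found in 5 of the 14 bound and 1 of the 19 unbound promoters, against 21.8% of all. These are counts of letters in windows, without a test, and say nothing of occupancy by SKN-1.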
